A study of Mus musculus with 59 samples.

Results

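The genes described here are the measured parts of the DREAM repressor and of the brakes that hold cells in G1: the pocket proteins Rbl1 (p107) and Rbl2 (p130), the MuvB core subunits Lin9, Lin37, Lin52 and Lin54, the D-type cyclins Ccnd1, Ccnd2 and Ccnd3, and the cyclin-dependent kinase inhibitor Cdkn1b (p27). They were taken by symbol because each is tied to the kinase DYRK1A. Of the 10 genes listed, 9 had a row among the 18088 genes of the deposited table, and Lin54 was not analysed here. All 9 were above the minimum level for testing, and the lowest single value of any of them was 36.7 normalised counts, for Rbl1.

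DREAM joins a pocket protein, an E2F factor with its partner and the MuvB core on the promoters of cell cycle genes and keeps them silent in resting cells. DYRK1A phosphorylates LIN52, the step by which the pocket protein is held on MuvB, and it also phosphorylates cyclin D1, which marks that protein for breakdown, and p27, which stabilizes it. All of these are changes to proteins, and the libraries measured only RNA. In the postnatal brain cyclin D2 and p27 are best known for their parts in the division and the cell cycle exit of neural progenitors.

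RNA was sequenced from prefrontal cortex of 59 C57BL/6J mice aged 25 postnatal days, 30 of them Dyrk1a+/I48X heterozygotes (Het) and 29 wild type (WT). Pups got fluoxetine, lithium or vehicle in the milk of the dam between days 3 and 24. Genotype, drug and sex gave 12 groups of 5 mice, apart from WT fluoxetine males with 4. Fluoxetine is a serotonin reuptake inhibitor and lithium a mood stabilizer that inhibits GSK3 kinases. The mutation is in the germ line and so in every cell of the mouse. The labels name no litters, and pups of a dam share its drug, which means that each p-value reflects variation among the sampled mice and that a litter cannot be told apart from a treatment.

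Library totals were between 24391022 and 33842466 counts. Levels are normalised counts with SD, and differences are of log2(value + 1) and carry their standard error after ±. A gene was called at a Benjamini-Hochberg adjusted p under 0.05 in limma, over the 17901 genes tested. Dyrk1a itself was not lower in Het mice: its level was 2326 ± 65.9 in Het vehicle mice and 2232 ± 55.7 in WT vehicle mice (SD, n = 10 each), a difference of 0.06 ± 0.05 (limma adjusted p = 0.45). That standard error is shared over all 12 groups, so the spread of 2 Het fluoxetine males with high Dyrk1a enters it. A missed call under vehicle therefore does not show equal levels. Averaged over treatments Dyrk1a was higher in Het mice, by 0.13 ± 0.03 (limma adjusted p = 0.0077), and by 0.09 ± 0.01 without these 2 males, described next (limma adjusted p = 0.00029).

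Markers of the excitatory neurons of the cortex were present in every library, but markers of the olfactory bulb varied widely. The 14 olfactory bulb genes summed to between 8204 and 45925 normalised counts in Het vehicle males and between 1692 and 5829 in WT vehicle males, and none of them was at 0 in any library. Het vehicle male replicates 3 and 4 stood apart, with mean bulb marker deviations of 2.26 and 2.25 on the log2 scale and mean excitatory neuron marker deviations of -0.85 and -0.75. Het fluoxetine male replicates 3 and 4 also stood apart, with 4214 and 3278 normalised counts of Dyrk1a against 2442, 2371 and 2368 in the other 3 mice of that group. These 2 mice had the highest mean log2 deviations of the G1 and E2F regulator list, 0.49 and 0.35, where the other 57 libraries lay between -0.15 and 0.08, and of the stress gene list, 1.3 and 0.44, where the next was 0.29. Their striatal neuron marker means, 0.76 and 0.69, were the highest as well, next to 0.66 in replicate 5 of that group. Their bulb marker means, -1.63 and -1.79, lay within the range of the other libraries.

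Levels were compared between genes per kilobase of merged exons. These join the exons of every annotated transcript, 8775 bases from 21 transcripts for Ccnd3 and 4709 bases from 3 for Ccnd1. Which transcripts were in use was not measured, so the order and the shares below depend on these lengths. Cdkn1b, Ccnd1 and Ccnd2 were the highest, at 309 ± 43.5, 295 ± 47.4 and 290.1 ± 44.8 normalised counts per kilobase (SD, n = 59). These 3 neighbours in the order did not differ beyond their spread, as Cdkn1b was above Ccnd1 in 29 and Ccnd1 above Ccnd2 in 26 of 59 libraries. Lin37 followed with 254 ± 30.2, Lin52 with 207 ± 10.2 and Rbl2 with 179 ± 12.9 normalised counts per kilobase. Ccnd3 had 57.9 ± 8.13, and the lowest were Lin9 with 17.1 ± 2.01 and Rbl1 with 11.5 ± 2.97 normalised counts per kilobase. Rbl2, the pocket protein of resting cells, was above Ccnd3 in all 59 libraries, and Lin9 was above Rbl1, the pocket protein more used in cycling cells, in 58 of them. Among D-type cyclins, Ccnd1 made up 45.8% ± 4.5, Ccnd2 45.1% ± 4.6 and Ccnd3 9.2% ± 1.9 of their summed level per kilobase (SD, n = 59). Relative spread over the libraries was lowest for Lin52, with a coefficient of variation of 4.93%, and highest for Rbl1, with 25.8%.

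**Figure D1:**
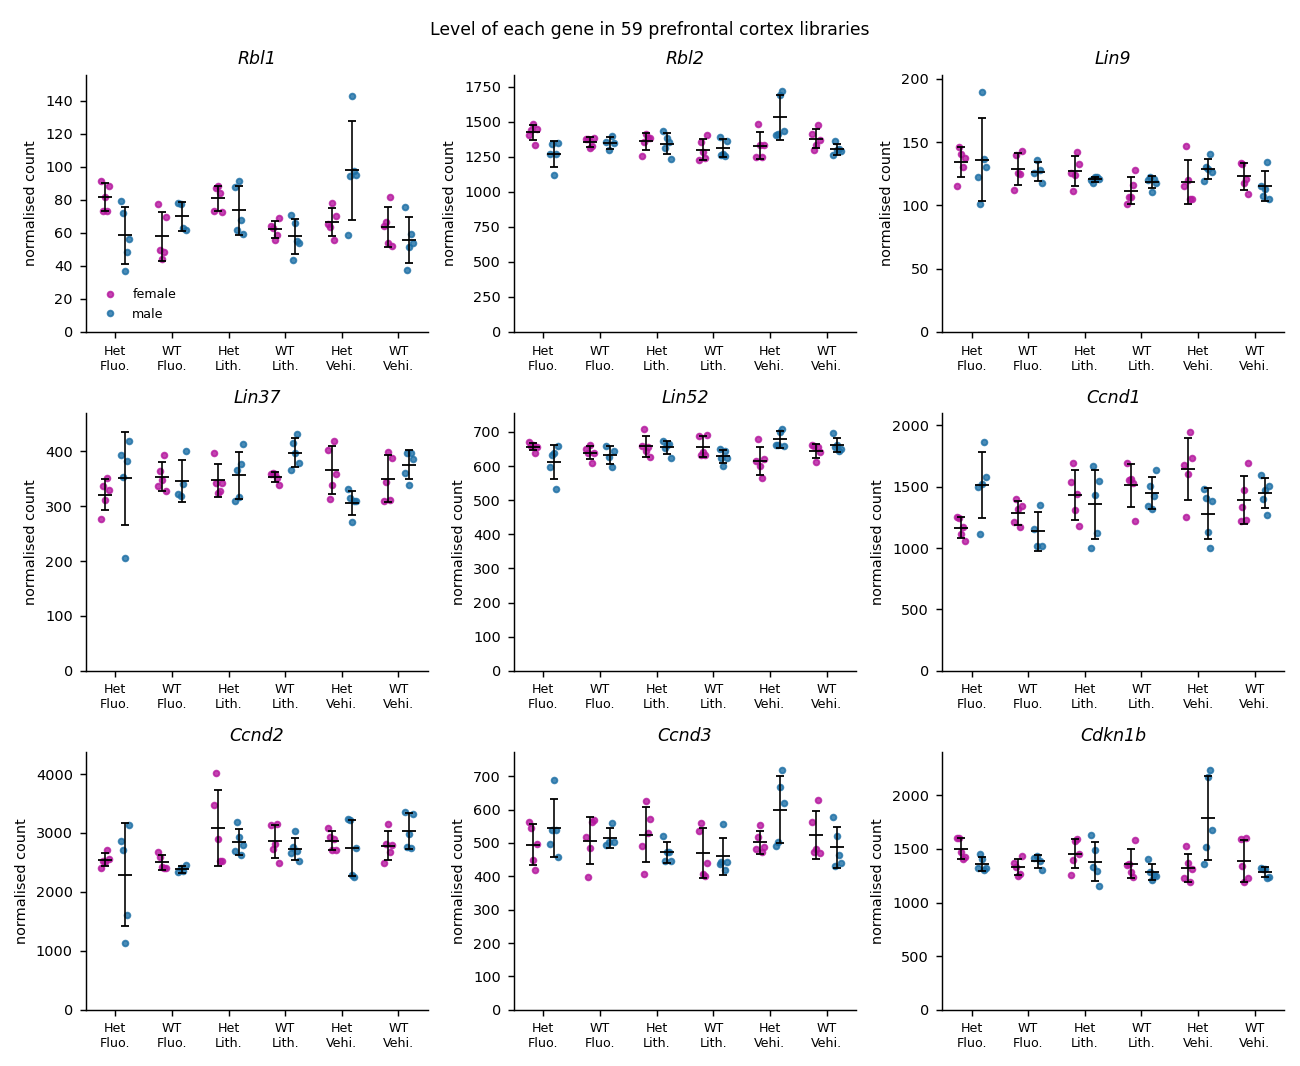
Normalised count (vertical axes, from 0) of each of 9 genes in each of 59 libraries, by genotype and drug, females left and males right in each column; points are mice and bars show the group mean ± SD. Cdkn1b, Rbl1 and Rbl2 are highest in Het vehicle males, where Rbl1 reaches 143, and Ccnd2 is lowest in 2 Het fluoxetine males, with 1138 and 1604.

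All 9 genes lie on autosomes. On GRCm38, Rbl1 lies at chr2:157145893-157204534, Rbl2 at chr8:91070057-91123844, Cdkn1b at chr6:134920401-134925513 and Ccnd2 at chr6:127125162-127152193. Exons of Ccnd1, Ccnd2, Ccnd3, Lin37 and Rbl2 overlap exons of a gene on the opposite strand (LTO1, 9330179D12Rik, Bysl, Hspb6 and Aktip). The library kit keeps strand, but whether the counting used it is not given in the sources used here. Reads from exon bases that these 5 genes share with their partners therefore cannot be assigned with certainty. What part of the reads this concerns was not measured.

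The RefSeq promoter table matched 6 of the 9 genes, and Ccnd1, Ccnd2 and Lin9 were not searched. The 250 bases upstream of the annotated start are shown for Rbl1, Cdkn1b and Rbl2, 3 of the 4 genes called higher in Het vehicle males, and for Lin52, the subunit that DYRK1A phosphorylates. They come from RefSeq (GRCm38.p6), written 5′ to 3′ on the gene's strand. Promoters were searched on both strands for the E2F site letters TTTGGCGC, TTTCCCGC, TTTCGCGC and TTTGCCGC, for the cell cycle homology region (CHR) letters TTTGAA and TTCGAA bound by LIN54 in DREAM, and for the FOXO letters GTAAACA. Capitals mark the matches.
Rbl1: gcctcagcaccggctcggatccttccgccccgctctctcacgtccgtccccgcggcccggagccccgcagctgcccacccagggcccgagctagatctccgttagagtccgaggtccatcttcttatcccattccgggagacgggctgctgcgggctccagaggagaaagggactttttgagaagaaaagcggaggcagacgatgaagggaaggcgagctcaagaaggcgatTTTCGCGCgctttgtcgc
Cdkn1b: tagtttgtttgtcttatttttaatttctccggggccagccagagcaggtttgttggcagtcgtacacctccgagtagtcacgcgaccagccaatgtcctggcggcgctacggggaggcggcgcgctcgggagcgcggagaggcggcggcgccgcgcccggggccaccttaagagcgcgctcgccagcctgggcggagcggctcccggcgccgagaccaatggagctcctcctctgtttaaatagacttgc
Rbl2: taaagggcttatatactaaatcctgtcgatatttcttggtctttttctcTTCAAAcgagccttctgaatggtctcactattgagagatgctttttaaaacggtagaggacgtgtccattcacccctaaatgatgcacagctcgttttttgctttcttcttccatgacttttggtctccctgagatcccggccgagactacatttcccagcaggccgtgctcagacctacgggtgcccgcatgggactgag
Lin52: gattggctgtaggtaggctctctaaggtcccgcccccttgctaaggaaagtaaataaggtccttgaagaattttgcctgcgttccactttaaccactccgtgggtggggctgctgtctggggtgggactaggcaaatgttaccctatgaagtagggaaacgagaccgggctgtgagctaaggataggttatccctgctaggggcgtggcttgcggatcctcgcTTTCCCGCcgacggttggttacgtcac
Rbl1 holds the E2F letters TTTCGCGC, 18 to 11 bases before its start, and Lin52 holds TTTCCCGC, 27 to 20 bases before its start. E2F letters occur in 1.86% of all 32851 promoters of this length. Rbl2 holds the CHR letters on the reverse strand, which 17.15% of all promoters hold, and Cdkn1b holds none of the letters searched. Lin37 also holds CHR letters, and 1 of the promoters of Ccnd3 holds the FOXO letters, which 3.166% of all promoters hold. A match is a description of the sequence and does not show binding.

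The genotypes were first compared under vehicle, with the sexes averaged. Cdkn1b and Rbl1 were higher in Het mice, and the other 7 genes did not pass the test. This was 2 of 9 genes, where 13.1% of all genes tested were called in this comparison and 6.03% were called higher. Cdkn1b had a median of 1443 normalised counts in Het vehicle mice (range 1191 to 2233) and 1316 in WT vehicle mice (range 1194 to 1600). The difference was 0.19 ± 0.07 (limma adjusted p = 0.046). Rbl1 had a median of 74.2 in Het vehicle mice (range 55.7 to 143) and 56.6 in WT vehicle mice (range 37.8 to 82.0). The difference was 0.43 ± 0.13 (limma adjusted p = 0.031). The ranges of the genotypes overlapped for both genes. In bulk tissue, a larger number of cells that use a gene and more of its RNA in each cell cannot be told apart. Rbl2 differed by 0.09 ± 0.04 (limma adjusted p = 0.099), and the MuvB subunits Lin9, Lin37 and Lin52 by 0.05 ± 0.07, -0.11 ± 0.08 and -0.02 ± 0.03. The D-type cyclins Ccnd1, Ccnd2 and Ccnd3 differed by 0.02 ± 0.09, -0.06 ± 0.10 and 0.12 ± 0.08. When Het vehicle male replicates 3 and 4 were left out, Cdkn1b differed by 0.08 and Rbl1 by 0.32 (limma adjusted p = 0.57 and 0.40), and neither passed. Of the 20 libraries compared, leaving out any of 13 singly ended the call of Cdkn1b (adjusted p up to 0.15), and any of 8 that of Rbl1 (up to 0.11).

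The sexes were then compared apart, and calls were found in males. There 4 genes were higher and 1 was lower in Het mice out of 9, where 36.7% of all genes tested were called, the most of any of the 16 comparisons, with 16.7% of all genes higher and 20% lower. Cdkn1b had 1356, 1516, 2174, 2233 and 1672 normalised counts in Het vehicle males, against 1321, 1316, 1317, 1231 and 1239 in WT vehicle males. The groups did not overlap, and the highest Het values were those of replicates 3 and 4. The difference was 0.45 ± 0.09 (limma adjusted p = 0.00053).

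Rbl1 had 58.9, 94.3, 143, 97.8 and 95.2 normalised counts in Het vehicle males, against 75.7, 37.8, 51.2, 59.4 and 53.9 in WT vehicle males. The lowest Het male lay within the WT range and the other 4 lay above it. The top of the WT range, 75.7, was WT vehicle male replicate 1. That library had the highest mean microglia, endothelial and astrocyte marker deviations of all, 0.46, 0.37 and 0.28, and an oligodendrocyte marker mean of -0.78. The difference was 0.78 ± 0.18 (limma adjusted p = 0.001). Rbl2 had 1408, 1410, 1690, 1720 and 1431 in Het vehicle males, against 1262, 1363, 1297, 1306 and 1289 in WT vehicle males. These groups did not overlap, and the difference was 0.23 ± 0.05 (limma adjusted p = 0.001).

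Ccnd3, the least abundant D-type cyclin, had 491, 502, 667, 719 and 619 normalised counts in Het vehicle males, against 579, 432, 519.6, 464 and 440.1 in WT vehicle males. The ranges overlapped, and the difference was 0.29 ± 0.12 (limma adjusted p = 0.042). Lin37, which MuvB needs for repression, was the gene that was lower. It had 331, 314, 271, 309 and 309 in Het vehicle males, against 360.3, 398, 338, 397 and 386 in WT vehicle males. All Het males lay below all WT males, and the difference was -0.29 ± 0.11 (limma adjusted p = 0.03). Ccnd1 and Ccnd2 differed by -0.19 ± 0.12 and -0.16 ± 0.14, Lin9 by 0.17 ± 0.10 and Lin52 by 0.03 ± 0.04, and none of these 4 passed. Without Het vehicle male replicates 3 and 4, none of the 9 genes passed in males, and Cdkn1b, Rbl1 and Rbl2 differed by 0.23, 0.57 and 0.12 (limma adjusted p = 0.18, 0.16 and 0.22). The calls of Ccnd3 and Lin37 also ended on leaving out 6 and 5 of the 10 libraries singly, while those of Cdkn1b, Rbl1 and Rbl2 held in each of these.

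In vehicle females none of the 9 genes was called, nor was any of the 17901 genes tested (0%), with 631 genes at an unadjusted p under 0.05 in limma. The differences for Cdkn1b, Rbl1 and Rbl2 were -0.06 ± 0.09, 0.08 ± 0.18 and -0.05 ± 0.05. Cdkn1b had 1229, 1526, 1369, 1191 and 1310.4 normalised counts in Het vehicle females, against 1595, 1343, 1194, 1600.3 and 1226 in WT vehicle females. Both genotypes held mice with high and with low levels.

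The genotype effect in females minus that in males was tested directly. It was called below 0 for 3 of 9 genes, where 16% of all genes tested were called and 6.26% were called below 0. The difference of effects was -0.52 ± 0.13 for Cdkn1b, -0.71 ± 0.26 for Rbl1 and -0.28 ± 0.07 for Rbl2 (limma adjusted p = 0.017, 0.049 and 0.017). None of the 9 genes was called in it when Het vehicle male replicate 3, Het vehicle male replicate 4 or WT vehicle female replicate 4 was left out. For Rbl1 the call ended on leaving out 15 of the 20 libraries singly (adjusted p up to 0.16), and for Cdkn1b and Rbl2 on leaving out those 3 (up to 0.066 each).

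**Figure D2:**
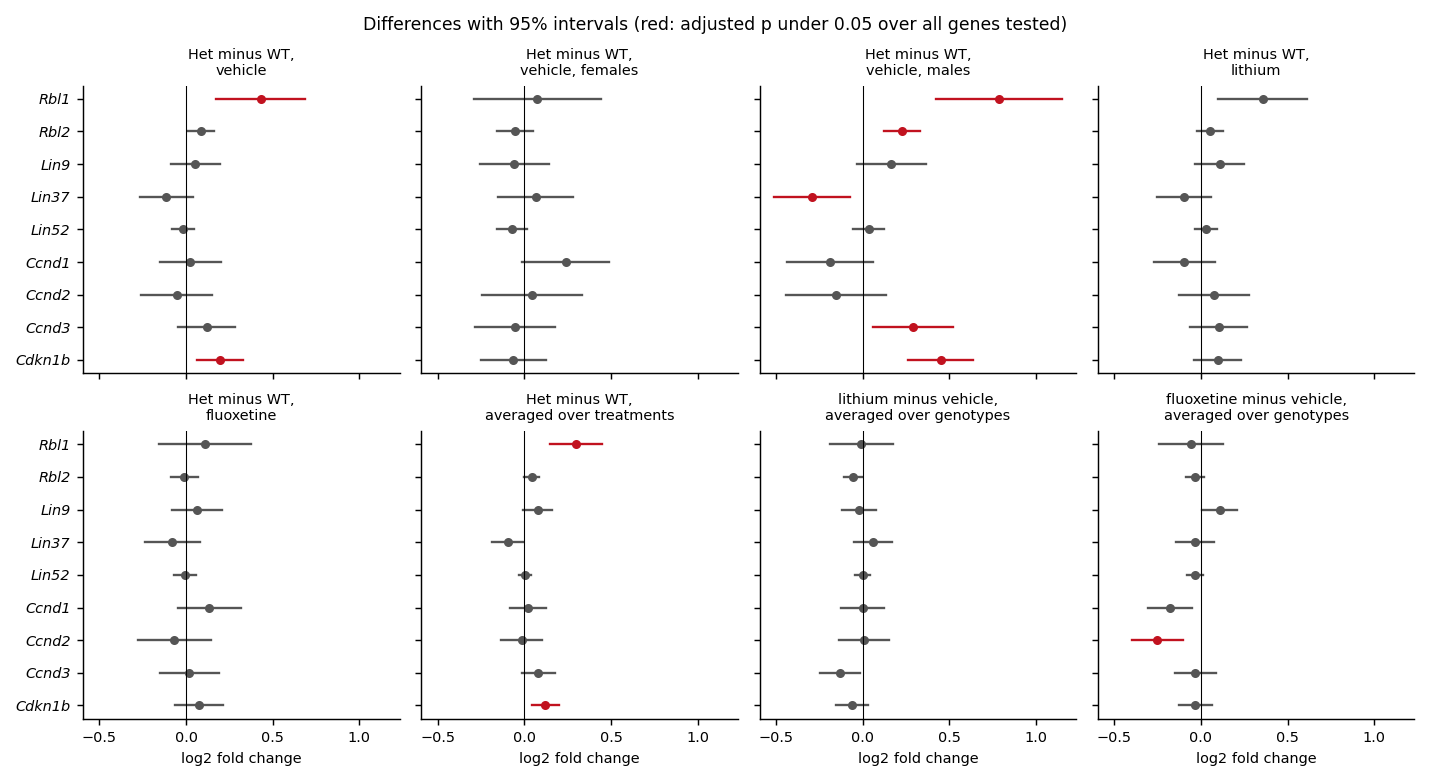
Log2 fold change (horizontal axes) with its 95% interval for 9 genes in 8 comparisons, in red where the gene passed at an adjusted p under 0.05 over all genes tested. In vehicle males Cdkn1b, Rbl1, Rbl2 and Ccnd3 lie above 0 and Lin37 below, while in vehicle females no gene is red.

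The olfactory bulb markers moved with these genes. In vehicle males all 14 bulb markers were higher in Het mice, with a median difference of 3.19. The mean bulb marker deviation was -0.09, 1.04, 2.26, 2.25 and 1.68 in Het vehicle males, in replicate order, against -0.66, -2.52, -2.17, -2.30 and -1.99 in WT vehicle males. In females none of the 14 was called. The WT vehicle females with the highest bulb marker means, replicates 4 and 1 with 1.58 and 1.15, were also those with the highest Cdkn1b.

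Neuroblast markers summed to between 36508 and 50009 normalised counts in Het vehicle males and between 30081 and 34261 in WT vehicle males. Excitatory cortical neuron markers summed to between 77654 and 142772 in Het vehicle males and between 149554 and 160026 in WT vehicle males. With the bulb marker mean as a covariate, none of the 9 genes was called between genotypes under vehicle, where 2 of all 17901 genes tested were called. In males the differences were then 0.14 for Cdkn1b, 0.29 for Rbl1, 0.09 for Rbl2, 0.03 for Ccnd3 and -0.10 for Lin37 (limma adjusted p of 0.76 or more). Whether the amount of bulb tissue produced the differences was not tested, and within vehicle males the bulb marker means of the genotypes did not overlap.

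**Figure D3:**
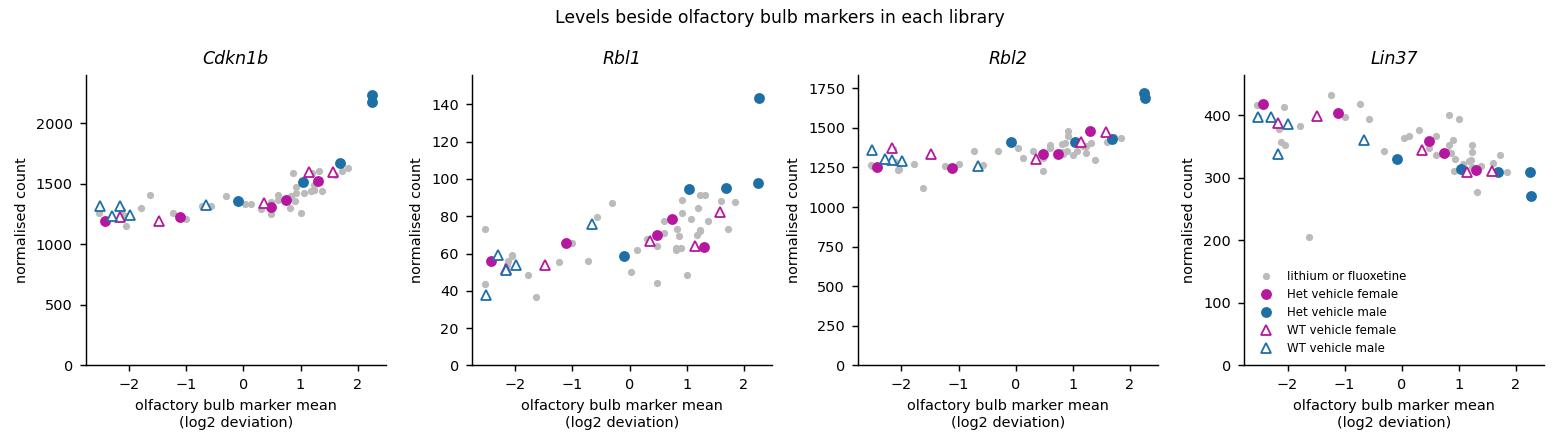
Normalised count of Cdkn1b, Rbl1, Rbl2 and Lin37 (vertical axes, from 0) against the mean log2 deviation of 14 olfactory bulb markers (horizontal axes) in each of 59 libraries, with vehicle groups coloured by sex, filled for Het and open for WT. Het vehicle males lie between -0.09 and 2.26 and WT vehicle males between -2.52 and -0.66 on the horizontal axis.

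Under lithium and under fluoxetine none of the 9 genes was called between genotypes, where 0.0112% of all genes tested were called in each. Rbl1 was the gene with the largest difference under lithium, 0.36 ± 0.13 (limma adjusted p = 0.23). It had 73.2, 87.2, 88.2, 84.1 and 72.4 normalised counts in Het lithium females, against 64.3, 63.0, 55.9, 58.6 and 69.2 in WT lithium females. These groups did not overlap, while those of the lithium males did. Under fluoxetine Rbl1 differed by 0.11 ± 0.13 and Cdkn1b by 0.07 ± 0.07.

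Averaged over the 3 treatments, Cdkn1b and Rbl1 were higher in Het mice, 2 of 9 genes where 21.4% of all genes tested were called and 8.97% were called higher. Cdkn1b was higher by 0.12 ± 0.04 and Rbl1 by 0.30 ± 0.07 (limma adjusted p = 0.024 and 0.0094). The average includes the vehicle mice already described. Both calls held when any single library was left out. With the bulb covariate the differences were 0.06 and 0.20 (limma adjusted p = 0.24 and 0.093), and without Het vehicle male replicates 3 and 4 they were 0.09 and 0.26 (limma adjusted p = 0.098 and 0.038).

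Fluoxetine was next compared with vehicle. Averaged over genotypes, Ccnd2 was lower with fluoxetine, and this was 1 of 9 genes where 3.09% of all genes tested were called and 1.64% were called lower. Ccnd2, the cyclin that carries neural progenitors through G1, had a median of 2454 normalised counts in fluoxetine mice (range 1138 to 3136, n = 19) and 2802 in vehicle mice (range 2254 to 3359, n = 20). The difference was -0.25 ± 0.07 (limma adjusted p = 0.041). The estimates were -0.26 ± 0.10 in Het mice and -0.25 ± 0.10 in WT mice (limma adjusted p = 0.11 and 0.21). The estimate in Het mice rested on Het fluoxetine male replicates 3 and 4, as given below. None of the 9 genes was called within either genotype, where 4.27% of all genes tested were called in Het mice and 0.447% in WT mice.

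Ccnd2 had 2861, 2717, 1138, 1604 and 3136 normalised counts in Het fluoxetine males, against 3230.2, 3220.4, 2291, 2254 and 2737 in Het vehicle males. The lowest values were those of Het fluoxetine male replicates 3 and 4, and the other 3 lay inside the vehicle range. Without these 2 mice the difference in Het mice was -0.04 (limma adjusted p = 0.90) and the average over genotypes was -0.14 (limma adjusted p = 0.11), so the averaged call was lost. They are the mice with the highest Dyrk1a, stress gene, striatal marker and G1 regulator levels, whose part in this result was not tested. It was also lost on leaving out 23 of the 39 libraries singly, where the adjusted p reached 0.076.

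In WT mice Ccnd2 had 2329, 2410.2, 2348 and 2454 normalised counts in fluoxetine males, against 3359, 2760, 2984, 2737 and 3325 in vehicle males. All WT fluoxetine males lay below all WT vehicle males. Their mean bulb marker deviations did not overlap either, at 0.81 to 1.38 in fluoxetine and -2.52 to -0.66 in vehicle males. Drug and bulb content therefore cannot be told apart in these males. WT fluoxetine females had 2677, 2595, 2427, 2408 and 2405, against 2495, 2811, 3159, 2673 and 2794 in WT vehicle females, and these overlapped. Without the 2 Het fluoxetine males, whose spread enters the shared error, the difference in WT mice of -0.25 passed (limma adjusted p = 0.039), and it also passed when only the WT groups were fitted (limma adjusted p = 0.011). Bulb markers differed by a median of 1.76 between WT fluoxetine and WT vehicle mice, with none of 14 called, and with 6 of 14 called higher without the 2 Het fluoxetine males. With the bulb covariate the difference of Ccnd2 in WT mice was -0.21 (limma adjusted p = 0.50) and the average over genotypes was -0.24 (limma adjusted p = 0.037).

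Ccnd1, the cyclin D that DYRK1A phosphorylates, differed by -0.18 ± 0.06 with fluoxetine averaged over genotypes (limma adjusted p = 0.10). It had 1249.5, 1245.5, 1113, 1172 and 1055 normalised counts in Het fluoxetine females, against 1675, 1257, 1606, 1949 and 1731 in Het vehicle females. All of these fluoxetine mice lay below all of the vehicle mice. Bulb marker means averaged 1.14 ± 0.38 in the Het fluoxetine females and -0.20 ± 1.53 in the Het vehicle females (SD, n = 5 each), and their ranges overlapped. Among the vehicle females, replicate 4 had the lowest bulb marker mean, -2.43, and the highest Ccnd1. Replicate 2 had the highest bulb marker mean and the lowest Ccnd1. What part bulb content had in the Ccnd1 levels of these females was not tested. In males of that genotype the mean was 1516 ± 269 in Het fluoxetine mice and 1282 ± 207 in Het vehicle mice (SD, n = 5 each), and the difference between the sexes was not tested. Ccnd3 and Cdkn1b differed by -0.03 ± 0.06 and -0.03 ± 0.05 with fluoxetine averaged over genotypes.

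**Figure D4:**
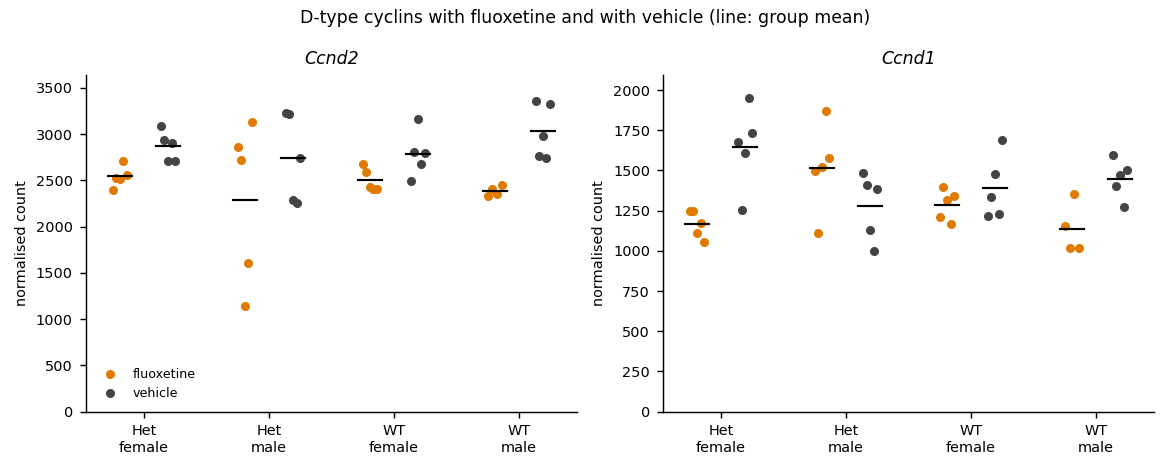
Normalised count (vertical axes, from 0) of Ccnd2 and Ccnd1 in fluoxetine mice (orange, left of each pair) and vehicle mice (dark), by genotype and sex; points are mice and lines are group means. Ccnd2 lies between 2329 and 2454 in WT fluoxetine males, below all WT vehicle males, and 2 Het fluoxetine males lie at 1138 and 1604.

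Lithium gave no call among the 9 genes in Het mice, in WT mice or averaged over both, where 0.497%, 0.162% and 2.12% of all genes tested were called. The largest averaged difference was that of Ccnd3, -0.13 ± 0.06 (limma adjusted p = 0.29). Its 95% interval and those of the other 8 genes are in the plot of differences. Ccnd2 had its highest values of the study, 4017 and 3474 normalised counts, in Het lithium female replicates 2 and 1, while the other 3 mice of that group had 2905, 2526 and 2529.8. Het lithium female replicate 1 had the lowest mean oligodendrocyte and neuroblast marker deviations of all libraries, -1.65 and -1.10. Its bulb marker mean was -2.52, and what part these had in its Ccnd2 level was not tested.

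Whether either drug acted differently in Het mice was tested as an interaction. None of the 9 genes and none of the 17901 genes was called for lithium or for fluoxetine (0% each), and 497 genes for lithium and 3917 for fluoxetine had an unadjusted limma p under 0.05. For Rbl1 the fluoxetine effect in Het minus WT mice was -0.32 ± 0.18 (limma adjusted p = 0.30). Females minus males, averaged over genotypes and treatments, gave no call among the 9 genes, where 0.156% of all genes tested were called, and the estimates lay between -0.02 and 0.07.

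Other genes of the G1 pathway were counted from lists. Of 26 measured G1 and E2F regulators, 1 was higher and 1 was lower in Het vehicle mice than in WT vehicle mice, where 13.1% of all genes were called. The median over the list was 0.02, against 0.00 over all genes. Cdk4, the kinase that D-type cyclins activate, was higher by 0.19 ± 0.06 and the repressor E2f6 differed by -0.12 ± 0.03 (limma adjusted p = 0.041 and 0.022). In vehicle males 7 were higher and 4 lower, where 16.7% of all genes were higher and 20% lower, and Cdk4 differed by 0.40 ± 0.09 (limma adjusted p = 0.001). Averaged over treatments 2 were higher and 2 lower, where 21.4% of all genes were called, among them Cdk2 with 0.13 ± 0.05 and E2f1 with -0.18 ± 0.06 (limma adjusted p = 0.042 and 0.026). Cdk2 differed by 0.11 without the 2 Het fluoxetine males (limma adjusted p = 0.078), and without the 2 Het vehicle males Cdk2 and E2f1 differed by 0.12 and -0.13 (limma adjusted p = 0.10 each). With fluoxetine averaged over genotypes E2f7, a repressor of E2F targets, was higher by 0.55 ± 0.14 and E2f6 differed by -0.09 ± 0.02 (limma adjusted p = 0.018 and 0.009), where 3.09% of all genes were called. These were 0.51 and -0.07 without the 2 Het fluoxetine males (limma adjusted p = 0.038 and 0.022).

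Of 13 measured genes that turn over cyclin D and p27 or form the kinases around them, 2 were higher and 2 lower in Het vehicle mice than in WT vehicle mice, with a median of 0.06, beside the same 13.1% of all genes. Dyrk1b, the nearest relative of Dyrk1a, was higher by 0.15 ± 0.03, and Dcaf7, the scaffold that binds both kinases, by 0.14 ± 0.03 (limma adjusted p = 0.010 and 0.016). Cul1 and Skp1a, parts of the ubiquitin ligase that removes p27, differed by -0.09 ± 0.03 and -0.13 ± 0.04 (limma adjusted p = 0.044 each). In vehicle males Skp1a differed by -0.21 ± 0.06, while Skp2 of the same ligase was higher by 0.23 ± 0.09 (limma adjusted p = 0.007 and 0.038). Dyrk1b, Dcaf7 and Lats2 were also called higher there, by 0.17, 0.20 and 0.37. Of all genes, 16.7% were higher and 20% lower in vehicle males. Averaged over treatments Dyrk1b and Dcaf7 were each higher by 0.11 ± 0.02 (limma adjusted p = 0.00024 each), where 21.4% of all genes were called. In the same average Skp1a differed by -0.07 ± 0.03 (limma adjusted p = 0.042). With fluoxetine in Het mice Dyrk1b and Lats2, a kinase that activates DYRK1A towards DREAM assembly, differed by -0.11 ± 0.03 and -0.23 ± 0.06 (limma adjusted p = 0.039 and 0.033), where 4.27% of all genes were called. When the 2 Het fluoxetine males were left out they differed by -0.10 and -0.20 and neither passed (limma adjusted p = 0.20 and 0.21).

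Of 30 genes that DREAM is known to repress, 1 was higher and none lower in Het vehicle mice than in WT vehicle mice, with a median of 0.11 against 0.00 over all genes, and 6.03% of all genes were called higher. This was Mcm7, part of the replicative helicase, with 0.44 ± 0.10 (limma adjusted p = 0.016). In vehicle males 7 of 30 were higher and none lower, where 16.7% of all genes were higher, with a median of 0.26, and Mcm7 differed by 0.79 ± 0.14. In vehicle females none was called, and the median was -0.14. Averaged over treatments 4 were higher, where 8.97% of all genes were, namely Mcm4 with 0.16 ± 0.04, Mcm6 with 0.24 ± 0.08, Mcm7 with 0.26 ± 0.06 and the spindle checkpoint kinase gene Bub1b with 0.36 ± 0.11 (limma adjusted p = 0.013, 0.026, 0.005 and 0.022). All 4 passed without the 2 Het fluoxetine males, with Mcm6 at 0.13 (limma adjusted p = 0.014), and without the 2 Het vehicle males Mcm6 and Bub1b did not (limma adjusted p = 0.073 and 0.082). With fluoxetine in Het mice, where those 2 fluoxetine males are included, Mcm6 was higher by 0.49 ± 0.13 (limma adjusted p = 0.031). Of all genes, 4.27% were called in that comparison.

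Without Het vehicle male replicates 3 and 4, no gene of the 3 lists was called between genotypes under vehicle, in both sexes together or in males. Of all genes, 2 were then called under vehicle and 0 in males, with 2014 and 3464 at an unadjusted limma p under 0.05. The median of the DREAM targets in males was then 0.23. With the bulb covariate none of the 3 lists held a call between genotypes under vehicle, in both sexes together or in males. Of all genes, 2 were then called in both sexes together. Averaged over treatments, 1 DREAM target, 1 G1 regulator and 2 turnover genes were called with the bulb covariate.

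Over all 59 libraries the profile of each gene was set beside those of the better expressed genes, as a description only. The nearest to Cdkn1b were Cnot6, Rasa2 and Ppp6r3 (Pearson r = 0.95, 0.95 and 0.95). The nearest to Rbl2 were Fam171b, Scn3a and Rasa1 (r = 0.89, 0.87 and 0.86), and those nearest to Rbl1 were Cdk4, Sox2 and C130071C03Rik (r = 0.83, 0.81 and 0.80). For Ccnd2 they were Neurl1b, Srpk1 and Arhgef2 (r = 0.88, 0.88 and 0.85), and for Lin37 Gmpr, Cyb5a and Abhd14a (r = 0.87, 0.84 and 0.84). The closest for Ccnd3 was Mta2 (r = 0.79), for Ccnd1 Specc1 (r = 0.75), for Lin52 Tmem47 (r = 0.73) and for Lin9 Rbbp4, itself a MuvB subunit (r = 0.69). These points share libraries, scaling and the range of bulb marker levels.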

How the data were processed

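The labels describe poly(A) libraries from a stranded kit. Tools named without a role in the submitters' processing notes are DESeq2 1.19.11, Salmon 0.11.2 and R 3.6.0, and the build is GRCm38. The authors deposited 1 table of normalised values, a signal per gene and library that equals counts divided by a size factor. Whole reads were recovered within 0.01 counts for 100% of values, though in 3 libraries the step lay too near 1 to show this. The 17901 genes that reached 10 in 4 or more libraries were analysed as log2(value + 1), which understates changes of low genes. limma 3.58.1 in R 4.3.3, with a trend and 12 group means (47 residual degrees of freedom), gave 16 comparisons, each adjusted over all genes. With 9 genes this makes 144 member values.

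Replicates differed by more than sampling noise in all 116 pairs within groups. The 10 members, the lists and the bulb covariate were chosen with earlier results of these data known. Named list genes were those called in comparisons averaged over the sexes, up to 6 per list. Skp2 was named for its call in vehicle males, whose values are given only for Cdk4, Mcm7 and the called turnover genes. Likeness took the 3 best correlated genes of at least median level. Alternatives included edgeR 4.0.16 on the recovered counts. The limma step was tested on simulated data in which genes varied independently, so shared variation such as that of bulb markers was not covered. Its estimates were unbiased for genes with a mean of 100 normalised counts or more, which Rbl1 does not reach. It missed many moderate changes in groups of 5, so a missed call does not show equality. The pass criteria of this test were rewritten after a first version, which asked for higher recovery, had failed. Kilobases are merged GENCODE M21 exons. Skp1 is listed as Skp1a.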

Additional observations from a re-analysis of the deposited data

Results flagged for a closer look

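In 3 of the 108 sets of a gene and a group, the highest mouse lay far from the rest of its group, where chance gives about 1 in 20. Ccnd3 was at 559.9 normalised counts in WT fluoxetine male replicate 3 and at 557.6 in WT lithium male replicate 3. Lin37 was at 397.5 in Het lithium female replicate 1, the library with the lowest oligodendrocyte and neuroblast marker means.

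The effect of genotype under vehicle, females minus males, was past the threshold for Cdkn1b (-0.52), Rbl1 (-0.71) and Rbl2 (-0.28) in the interaction test of limma. The bulb marker mean was -0.20 ± 1.53 in Het vehicle females and -0.11 ± 1.64 in WT vehicle females, and 1.43 ± 0.99 in Het vehicle males and -1.93 ± 0.73 in WT vehicle males (SD, n = 5 each). With that mean as a covariate the differences were -0.20, -0.20 and -0.14 (limma adjusted p = 0.98 each), and without Het vehicle male replicates 3 and 4 they were -0.30, -0.49 and -0.18 (limma adjusted p = 0.37, 0.43 and 0.37). What produced the difference between the sexes was not tested.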

How the results depend on the processing

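A pseudocount of 5, no filter, TMM factors and quantile normalization kept every count of called genes within 1.5 times. A filter of 100, which removes Rbl1 from the test, gave 1 under vehicle and 1 averaged over treatments. The replicate block gave 1 under vehicle, with Cdkn1b at an adjusted p of 0.054; same-numbered mice correlated over 0.1 in 5 of 29 pairs (-0.42 to 0.39), so the numbers do not pair the mice. Fitting only the groups compared gave 0 under vehicle, 0 for the sex difference of the genotype effect, 2 for fluoxetine in WT mice (Ccnd2 and Ccnd1, both lower) and 0 for fluoxetine averaged. edgeR gave 0 for fluoxetine averaged (Ccnd2 adjusted p = 0.052). The bulb covariate gave 0 under vehicle, where 2 of all genes were called, and 0 in vehicle males, in the sex difference and averaged over treatments. It gave 2 for fluoxetine averaged (Ccnd2 and Cdkn1b, both lower), where 1651 of all genes were called. Without the 2 Het fluoxetine males there was 1 for fluoxetine in WT mice and 0 averaged; with the covariate as well, all 4 genotype counts were 0. Without the 2 Het vehicle males, an alternative chosen after seeing the data, there were 0 under vehicle, 0 in males, 0 in the sex difference, 1 averaged over treatments and 2 for fluoxetine averaged (Ccnd2 and Ccnd1). Leaving out single libraries gave 0 to 3 called genes under vehicle, 3 to 5 in vehicle males, 0 to 4 in the sex difference, 0 to 1 for fluoxetine in Het mice and 0 to 1 averaged. The lowest counts in males (3) came without Het replicate 3 or 4 or WT replicate 2, 4 or 5.

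Some member values changed sign between settings. With the covariate, Ccnd3 under vehicle was -0.0107, Cdkn1b under lithium -0.00609 and Rbl2 under fluoxetine 0.0146. With the covariate and without the 2 Het fluoxetine males, Ccnd3 was -0.0312 under vehicle, -0.0142 averaged over treatments and -0.0169 in males, Lin37 under vehicle 0.00785, Cdkn1b under lithium -0.0110 and Rbl2 under fluoxetine 0.0294. Rbl2 under fluoxetine was 0.0187 without those males and -0.0216 to 0.0120 over single libraries left out, and Ccnd3 in vehicle females was -0.0901 to 0.0153. Of these, only Ccnd3 in vehicle males had passed the test. The settings were followed for 39 of the 144 member values, chosen after the results were seen. Of the other 105, none of them called, 56 changed sign under 1 setting or more. The largest of these 56 was 0.32 in the main fit, as an absolute log2 difference. Litter against drug, bulb content against genotype in vehicle males, and bulb content against fluoxetine in WT males cannot be told apart here.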
